A study of Mus musculus with 61 samples.

Results

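Cell cycle and proliferation genes were followed in the lacrimal and the salivary glands of male mice of the NOD strain, a model of autoimmune gland disease in which males develop large leukocyte infiltrates in the lacrimal glands but seldom disease of the salivary glands. The 36 genes cover the stages from licensing of DNA for replication to cytokinesis, and they were taken as a list of gene symbols out of 18194 genes that the annotation ties to at least 1 unambiguous probe set. Where a gene had several such probe sets, the 1 with the highest average across the 61 arrays stood for it. Of the 36 genes, 35 had such a probe set and Ccnb1 was not analysed here.

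A dividing cell first loads the MCM helicase onto its replication origins, then copies its DNA with the help of the sliding clamp Pcna and of enzymes that make nucleotides. Cyclin-dependent kinases drive the cell into mitosis, where Aurora and Polo kinases, the spindle checkpoint, the centromere and motor proteins separate the chromosomes, and the anaphase-promoting complex then destroys the mitotic cyclins. Most of these genes are transcribed mainly in cycling cells, so in adult glands they mark renewing gland cells and, where the gland is infiltrated, dividing lymphocytes. In RNA of whole glands, fewer dividing cells and less RNA per cell cannot be told apart.

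The arrays measured RNA from 31 lacrimal and 30 salivary samples in 16 groups. Mice received weekly intraperitoneal injections, from week 8, of LTBR-Ig, a fusion of the mouse lymphotoxin-beta receptor to mouse IgG1 that captures the receptor's ligands, or of MOPC-21, a mouse IgG1 control antibody, and were sampled at week 12 or week 16, while untreated mice were sampled at weeks 8, 12, 14 and 16. Both lacrimal glands of a mouse were combined, and the salivary samples were combined submandibular, parotid and other salivary glands freed of the cervical lymph nodes. Each group had 4 arrays, except for 3 in untreated lacrimal glands at week 12 and 2 in salivary glands of LTBR-Ig-treated mice at week 12. Values are log2 expression values, and those below 4 were taken as near background. The share of probe sets above 4 was 37.3% to 41.4% per array.

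Several arrays stood apart. In salivary glands of untreated mice at week 8, replicate 1 had Lcn11, a lipocalin of the lacrimal gland, at 13.34, against 2.15 to 3.54 in the other 29 salivary arrays, and it was the only salivary array in which the B-cell gene Ms4a1 was above background (5.32). Other lacrimal markers did not set this array apart. Its Mup5 (13.73) lay below replicates 2 to 4, its Pip (15.19) and Lpo (13.70) lay within their range, and its Bpifa1 (2.56) was near background. Mup5, Pip and Lpo were well above background in every salivary array, so they tell little about lacrimal tissue in this one. In untreated lacrimal glands at week 8, replicate 1 had the highest cell cycle levels of its group. In 8 lacrimal arrays, among them 2 of the 4 LTBR-Ig arrays and 2 of the 4 untreated arrays of week 16, Amy1, which encodes salivary amylase, exceeded a log2 value of 8. Results that rest on these arrays are given with and without them. The labels give no array batch, so a batch that held the week 8 arrays alone cannot be told apart from week 8.

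Of the 35 genes, Mcm4, Mcm6, Mcm7, Pcna, Rrm1, Rrm2, Cdc20 and Mki67 were above background in all 61 arrays. Foxm1, a transcription factor of mitotic genes, the Polo kinase Plk1, the checkpoint genes Bub1 and Bub1b, the kinetochore motor Cenpe and the spindle factor Tpx2 were above it in none, and Tyms and Aurka were above it in 1 array each. These 8 genes were tested in neither gland. Among the rest, 23 genes passed the filter on low values in lacrimal glands, 25 in salivary glands and 21 in both.

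**Figure D1:**
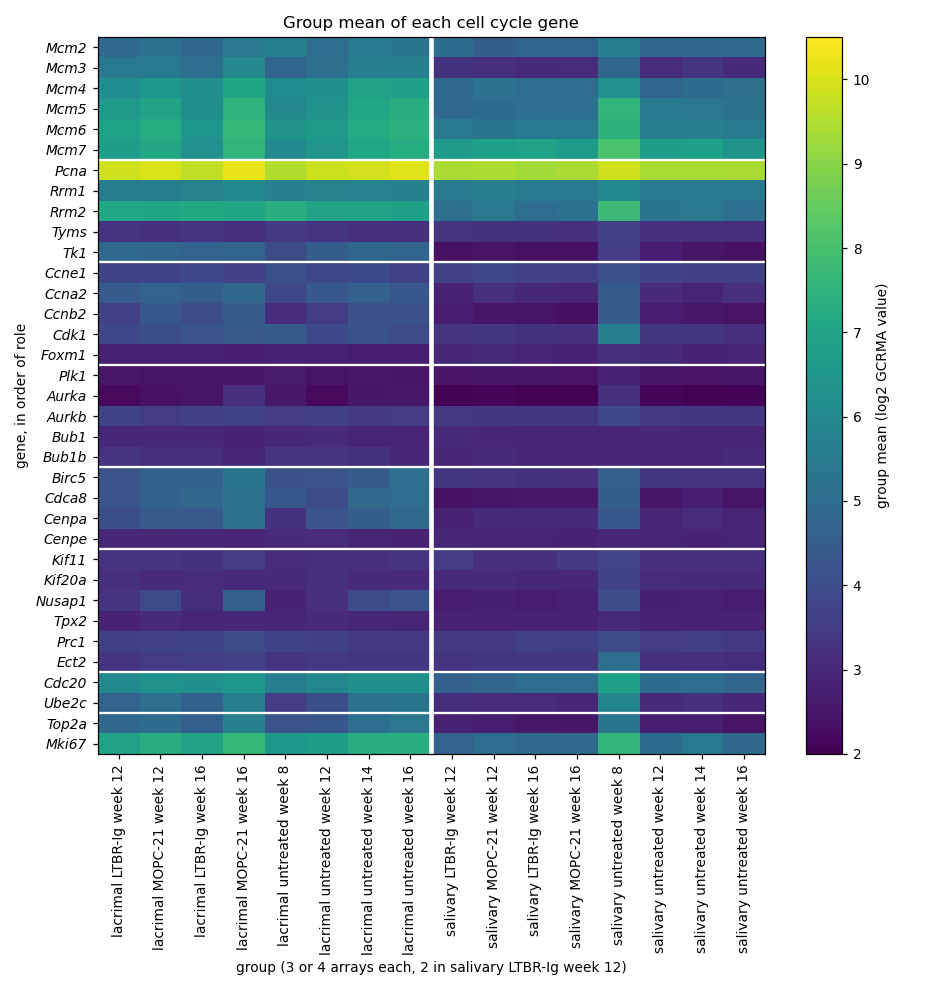
Group mean of each of the 35 genes (log2 value, colour scale) in the 16 groups, with genes in order of role and white lines between roles and glands. The week 8 salivary column stands out from the other salivary columns, whose arrays averaged 3.66 to 3.90 over the 35 genes.

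In salivary glands, cell cycle genes were high in untreated mice at week 8 and low at every later time. The mean of the 35 genes was 4.98 ± 0.43 at week 8, 3.78 ± 0.09 at week 12, 3.80 ± 0.04 at week 14 and 3.71 ± 0.05 at week 16 (SD, n = 4 arrays each). The number of genes above background was 16 to 28 per array at week 8 and 9 to 11 in the 26 later salivary arrays, treated and untreated. For 19 of the 35 genes, each of these 26 arrays lay below every week 8 array, with the narrowest gap for Pcna, at 9.61 on both sides after rounding. The share of all probe sets for these 26 arrays was not computed. For week 12 alone, the untreated arrays lay below every week 8 array for 21 of 25 genes tested and 21.3% of probe sets tested. For week 14 alone it was 20 of 25 genes and 18.7%. Both counts include genes that passed the filter only through their week 8 level. Neither share can be set beside the 19 of 35, which covers more arrays and used no filter.

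Top2a, the topoisomerase that untangles sister chromatids, was at 5.98, 5.78, 4.65 and 4.85 at week 8, at 3.38, 2.47, 2.47 and 2.57 at week 12, at 2.56, 3.02, 2.66 and 2.56 at week 14 and at 2.57, 2.58, 2.25 and 2.45 at week 16. Cdk1, the kinase that starts mitosis, was at 6.47, 5.92, 5.03 and 5.23 at week 8, at 3.41, 3.54, 3.19 and 3.41 at week 12, at 3.24, 3.56, 3.35 and 3.28 at week 14 and at 3.39, 2.95, 2.94 and 3.40 at week 16. Both genes were above background in each week 8 array and below it in each later one. Ube2c, the ubiquitin-conjugating enzyme of the anaphase-promoting complex, was at 6.57, 6.16, 5.49 and 5.35 at week 8, at 3.29, 3.30, 2.79 and 2.76 at week 12, at 2.97, 2.96, 3.46 and 3.22 at week 14 and at 3.23, 2.73, 2.64 and 3.11 at week 16. Cdca8, a subunit of the chromosomal passenger complex, was at 5.12, 4.48, 4.30 and 4.17 at week 8, at 2.76, 2.23, 2.79 and 2.29 at week 12, at 2.45, 2.78, 2.82 and 2.76 at week 14 and at 2.62, 2.43, 2.23 and 2.67 at week 16. Neither gene overlapped between week 8 and a later week. Top2a, Cdk1, Ube2c and Cdca8 passed the filter only through their week 8 level and so had to differ.

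Mki67 and Mcm7 were well above background at every time and showed the same order. Mki67, the proliferation antigen that coats mitotic chromosomes, was at 8.36, 8.07, 6.82 and 7.14 at week 8, at 5.45, 5.42, 4.67 and 4.50 at week 12, at 5.17, 5.15, 5.78 and 5.59 at week 14 and at 5.0, 5.03, 4.46 and 4.82 at week 16. Mcm7, a subunit of the MCM helicase, was at 8.26, 8.09, 7.79 and 8.17 at week 8, at 6.83, 6.76, 6.83 and 6.48 at week 12, at 6.60, 6.84, 7.01 and 6.95 at week 14 and at 6.45, 6.18, 6.44 and 6.53 at week 16. The lowest week 8 array of either gene lay above its highest array of the later weeks.

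**Figure D2:**
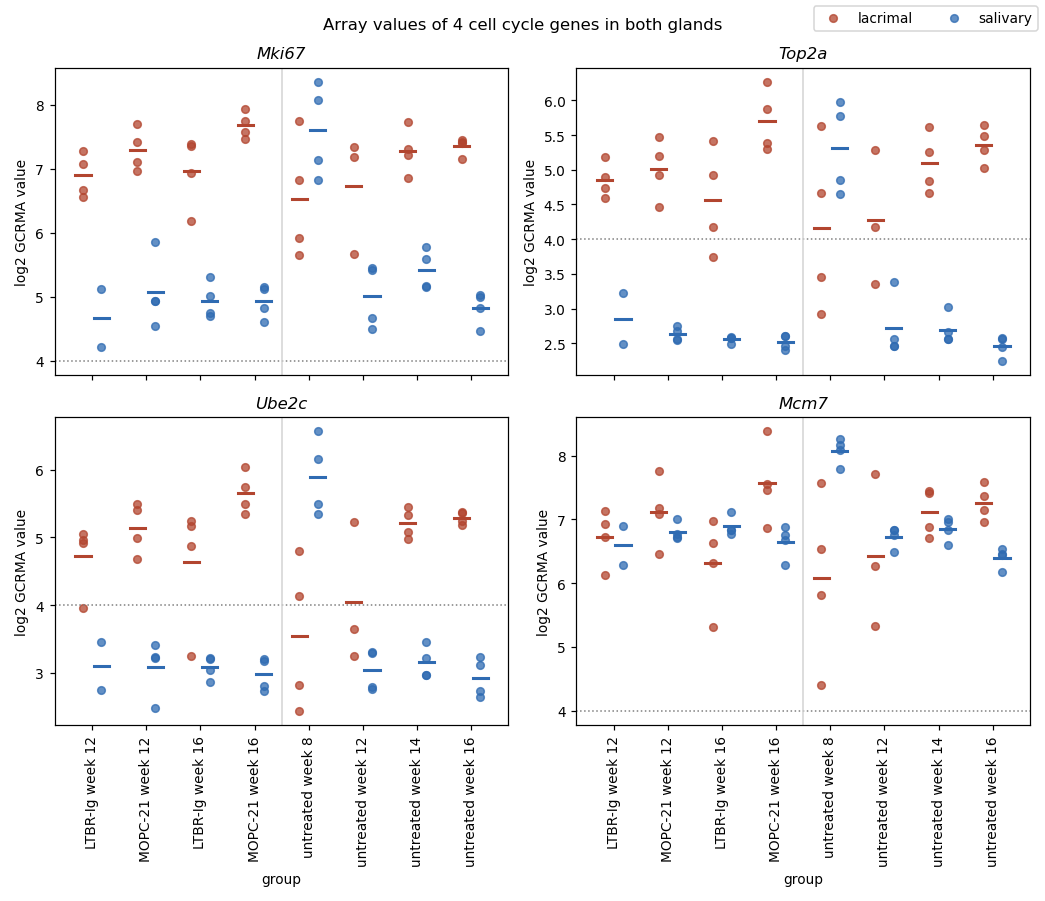
Log2 values of Mki67, Top2a, Ube2c and Mcm7 in every array, by group, with lacrimal glands in red, salivary glands in blue, a bar at each group mean and a dotted line at the background value of 4. In salivary glands the week 8 arrays of each gene lie above all later arrays, and in lacrimal glands the week 8 arrays are widely spread.

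Against week 8, 18 of the 25 genes tested fell at week 16 (limma, at least a 2-fold change with an adjusted p under 0.05 by Benjamini-Hochberg) and none rose, where 2.85% of all probe sets tested fell and 4.29% rose. The median log2 change of the 25 genes was -1.68, against -0.04 over all probe sets tested. Week 12 and week 14, which share the week 8 arrays with week 16, also had 18 genes lower each and none higher, where 3.62% of probe sets fell and 3.49% rose at week 12 and 2.84% fell and 4.42% rose at week 14, with median log2 changes of -1.53 at both times, against -0.09 at week 12 and -0.03 at week 14 over all probe sets tested. At all 3 times each of the 25 genes had an adjusted p under 0.05, a level for which the share of all probe sets is not given here. At an unadjusted p under 0.05, which all 25 also reached, it was 44.7%, 44.1% and 42.4% at weeks 12, 14 and 16. The 25 genes include those that passed the filter only through their week 8 level and so had to differ. With the filter set on the other salivary groups alone, 10 genes passed and 7 of them fell at week 16, namely Mcm4, Mcm5, Mcm6, Mcm7, Rrm2, Cdc20 and Mki67, where 2.27% of probe sets fell. With no filter, 20 of 35 genes fell at week 16, where 1.30% of probe sets did.

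The 8 genes with the lowest adjusted p at week 16 came from 6 of the 8 roles. Top2a fell by 2.85 on the log2 scale (SE 0.23, adjusted p = 1.5e-10). Cdk1 fell by 2.49 (SE 0.20, adjusted p = 1.6e-10), Ube2c by 2.96 (SE 0.24, adjusted p = 1.8e-10) and Mcm7 by 1.68 (SE 0.14, adjusted p = 4.9e-10). Cdca8 fell by 2.03 and the helicase subunits Mcm5 and Mcm6 by 2.38 and 1.95. Nusap1, which binds spindle microtubules, fell by 1.34. The other 10 genes fell by 1.15 to 2.77, with Mki67 at the upper end (SE 0.31, adjusted p = 6.4e-08). Every array of week 16 lay below every array of week 8 for 21 of the 25 genes, which held for 19.1% of probe sets tested. Of the 8 genes, Top2a, Cdk1, Ube2c, Cdca8 and Nusap1 passed the filter only through their week 8 level. Such genes had to differ, and they are among the 21.

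The genes that stayed under a 2-fold change at week 16 were Rrm1 (log2 change -0.53), Pcna (-0.47), Kif20a (-0.72), Mcm2 (-0.81), Ccne1 (-0.47), Aurkb (-0.52) and Kif11 (-0.60). Pcna, the replication clamp, was the most abundant signal of the list and averaged 9.42 ± 0.07 at week 16 and 9.89 ± 0.32 at week 8 (SD, n = 4 each). Kif20a, Ccne1, Aurkb and Kif11, whose proteins act in cytokinesis, entry into S phase, the chromosomal passenger complex and spindle assembly, averaged below 4 at week 16.

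Without replicate 1 of week 8, the array with Lcn11, 15, 16 and 14 of 19 genes fell at weeks 12, 14 and 16, where 4.06%, 3.26% and 3.23% of probe sets fell. Mki67 then fell by 2.51 at week 16 (adjusted p = 5.6e-07) and Top2a by 2.63 (adjusted p = 6.5e-10). The means of some marker lists of other cell types moved with these results. The mean of 8 fibroblast markers was 8.05 to 8.16 per array at week 16 and 9.39 to 9.71 at week 8. That of 8 endothelial markers was 4.81 to 4.96 at week 16 and 5.32 to 5.57 at week 8, and that of 9 duct and myoepithelial markers 9.38 to 9.45 at week 16 and 8.90 to 9.09 at week 8. Genes within these lists differed. Col1a1 fell by 2.75 while the fibroblast marker Dcn differed by -0.06, and Plvap fell by 1.17 while the endothelial marker Vwf differed by 0.59. Of the duct and myoepithelial markers only Myh11 (1.70) and Acta2 (1.12) passed, while Krt5 differed by 0.04 and Krt8 by -0.58. The T-cell markers stayed at 2.77 to 2.83 at week 16 and 2.71 to 2.86 at week 8, so their list was near background at both times. Single gland and plasma cell genes moved further. Jchain, the joining chain of secreted antibodies, was higher by 5.58 at week 16, the only 1 of 4 plasma cell markers tested that rose, and their list averaged 5.70 to 6.05 at week 16 and 4.78 to 5.84 at week 8. Of the gland markers, Smr2 (3.96, 1 of 10 submandibular and sublingual markers), Amy1 (3.93) and Cftr (1.51, with Amy1 2 of 5 parotid markers) rose. Amy1 was at 7.36, 7.50, 7.75 and 14.19 at week 16 and at 4.58 to 5.56 at week 8, so replicate 4 of week 16 made much of its change. The lacrimal marker Mup5 was at 10.17 to 10.80 at week 16 and at 13.73 to 14.40 in the 4 week 8 arrays, against 9.55 to 12.70 in all later salivary arrays (log2 change -3.67), so it was high in each week 8 array and not in replicate 1 alone. The part of these cell types in the result was not tested.

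Genes of the same processes outside the list are set here against the 2.85% of probe sets that fell. Of other S phase and replication genes, 8 of 19 tested fell at week 16 and none rose, among them the chromatin remodeller Hells (-1.89), the primase subunit Prim1 (-1.25), the licensing factor Cdt1 (-2.11) and the dUTPase Dut (-1.33). Of other G2 and mitosis genes, 12 of 23 tested fell and none rose, among them the tubulin-binding Stmn1 (-2.07), the tubulin Tubb5 (-1.32), the kinase Pbk (-2.35) and the passenger complex scaffold Incenp (-1.51). Of G1 cyclins, CDK inhibitors and quiescence genes, 4 of 21 fell, namely Cdk6 (-1.41), Ccnd1 (-1.08), Ccnd2 (-1.17) and the CDK inhibitor Cdkn1c (-1.31). These lists too hold genes that passed the filter only through their week 8 level. With the filter set on the other salivary groups, 5 of 15, 6 of 13 and 3 of 20 genes of the 3 lists fell, where 2.27% of probe sets did.

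Promoters are shown for Ube2c, Top2a, Cenpa and Ect2, the genes of 4 different roles with the lowest adjusted p for a difference between the glands in their course from week 8 to week 16, which is described after the lacrimal results. Ect2 passed the filter for that test through the salivary week 8 arrays alone, so its rank there was set in part by the filter. Each window runs from 250 bases before to 50 bases after the annotated start, in RefSeq's annotation of GRCm38.p6, and is written along the gene's strand. Ube2c lies at chr2:164769679-164769978 on the plus strand, Top2a at chr11:99024140-99024439 on the minus strand, Cenpa at chr5:30666636-30666935 on the plus strand and Ect2 at chr3:27153829-27154128 on the minus strand. Capitals mark 3 kinds of motif searched on both strands, namely TTTGAA, the CHR element of G2 and mitosis genes, then CCAAT, which the factor NF-Y binds, and E2F-type sites. An E2F-type site was TTCCCGC or else TTCGCGC, or the variant with letters TTGGCGC or else TTGCCGC.
Ube2c: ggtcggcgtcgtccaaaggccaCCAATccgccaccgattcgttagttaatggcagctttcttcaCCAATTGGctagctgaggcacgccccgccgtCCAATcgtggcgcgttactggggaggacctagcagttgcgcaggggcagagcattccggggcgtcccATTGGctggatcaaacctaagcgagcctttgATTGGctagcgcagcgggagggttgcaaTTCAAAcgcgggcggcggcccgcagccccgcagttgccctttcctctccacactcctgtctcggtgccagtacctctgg
Top2a: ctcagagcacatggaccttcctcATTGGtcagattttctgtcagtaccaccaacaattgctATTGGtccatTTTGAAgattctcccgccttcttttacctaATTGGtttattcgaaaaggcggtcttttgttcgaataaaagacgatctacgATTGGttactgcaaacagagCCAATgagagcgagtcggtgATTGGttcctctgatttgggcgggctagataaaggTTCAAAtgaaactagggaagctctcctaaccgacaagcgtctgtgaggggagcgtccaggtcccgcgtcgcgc
Cenpa: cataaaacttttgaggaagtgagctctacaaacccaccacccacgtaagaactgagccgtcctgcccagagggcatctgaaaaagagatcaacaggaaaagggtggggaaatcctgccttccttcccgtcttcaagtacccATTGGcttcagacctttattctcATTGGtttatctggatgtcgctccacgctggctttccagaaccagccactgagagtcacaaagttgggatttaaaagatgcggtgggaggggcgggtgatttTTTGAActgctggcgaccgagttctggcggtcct
Ect2: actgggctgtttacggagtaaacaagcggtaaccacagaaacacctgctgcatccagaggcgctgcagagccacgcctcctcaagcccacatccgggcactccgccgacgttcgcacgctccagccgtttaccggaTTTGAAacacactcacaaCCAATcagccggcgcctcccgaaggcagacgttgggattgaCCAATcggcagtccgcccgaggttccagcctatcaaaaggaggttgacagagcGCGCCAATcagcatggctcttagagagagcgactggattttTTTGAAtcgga
The Top2a window held 2 CHR matches and 6 CCAAT matches, and the Ube2c window 1 and 6. Cenpa had 1 CHR and 2 CCAAT matches, while Ect2 had 2 CHR matches, 3 CCAAT matches and 1 E2F-type match that overlaps a CCAAT.

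A window was found for 30 of the 36 genes, and the first was used for the 3 genes with several. TTTGAA was in 15 of the 30 windows and in 17.9% of all 32851 windows, CCAAT in 25 and 37.4%, and an E2F-type site in 10 and 9.57%. All 15 windows with TTTGAA also had CCAAT, a pair found in 6.95% of all windows. Of the 10 windows of replication genes, 1 had TTTGAA and 6 an E2F-type site, and of the 20 windows of cell cycle regulators and mitosis genes, 14 had TTTGAA and 4 an E2F-type site. Of 100 matches in these windows, 9 overlapped a match of another motif. A match of letters is a description of the window and not a binding site.

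In lacrimal glands of untreated mice, the cell cycle genes were widely spread at week 8 and rose in part by weeks 14 and 16. The mean of the 35 genes was 4.33 ± 0.63 at week 8 (n = 4 arrays), 4.44 ± 0.42 at week 12 (n = 3), 4.71 ± 0.18 at week 14 (n = 4) and 4.75 ± 0.10 at week 16 (n = 4). The 4 week 8 arrays stood at 5.19, 4.41, 3.80 and 3.93, so replicate 1 lay above every untreated lacrimal array of the later weeks.

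Cenpa, the histone variant of centromeres, was at 4.11, 3.18, 2.48 and 3.18 at week 8, at 4.14, 3.45 and 5.13 at week 12, at 3.96, 5.05, 4.05 and 4.93 at week 14 and at 4.61, 4.73, 5.15 and 5.15 at week 16. Ube2c was at 4.80, 4.14, 2.44 and 2.82 at week 8, at 3.65, 3.24 and 5.23 at week 12, at 4.98, 5.33, 5.45 and 5.08 at week 14 and at 5.18, 5.25, 5.37 and 5.36 at week 16. For both genes the week 16 arrays lay above every week 8 array, while at week 12 the arrays overlapped with those of week 8. Nusap1 was at 3.48, 2.68, 2.55 and 2.62 at week 8, at 2.87, 2.87 and 3.74 at week 12, at 3.13, 4.31, 3.72 and 4.63 at week 14 and at 4.25, 3.80, 4.47 and 4.37 at week 16. Ccnb2, a mitotic cyclin, was at 3.95, 3.03, 2.96 and 2.44 at week 8, at 2.95, 3.17 and 4.41 at week 12, at 4.04, 4.66, 3.36 and 4.40 at week 14 and at 3.94, 3.88, 4.29 and 4.34 at week 16. Week 8 replicate 1 was the highest of its group for each of these 4 genes.

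Mki67 was at 7.75, 6.82, 5.91 and 5.65 at week 8, at 7.18, 5.66 and 7.34 at week 12, at 6.85, 7.73, 7.31 and 7.22 at week 14 and at 7.45, 7.15, 7.41 and 7.40 at week 16. Top2a was at 5.63, 4.66, 3.45 and 2.93 at week 8, at 4.18, 3.35 and 5.29 at week 12, at 4.84, 5.62, 4.67 and 5.25 at week 14 and at 5.28, 5.03, 5.65 and 5.49 at week 16. At weeks 14 and 16 both genes overlapped with week 8 through week 8 replicate 1 alone.

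At week 16, 6 of the 23 genes tested rose against week 8 and none fell, where 12.1% of probe sets rose and 4.49% fell. The median log2 change of the 23 genes was 0.82, against -0.07 over all probe sets tested. Cenpa rose by 1.68 (SE 0.39, adjusted p = 7.8e-04), Ube2c by 1.74 (SE 0.44, adjusted p = 0.0018), Nusap1 by 1.39 (SE 0.37, adjusted p = 0.0028), Ccnb2 by 1.02 (SE 0.37, adjusted p = 0.024), Top2a by 1.19 (SE 0.44, adjusted p = 0.024) and Mcm7 by 1.18 (SE 0.50, adjusted p = 0.047). Mki67 differed by 0.82 (adjusted p = 0.054), Pcna by 0.62 (adjusted p = 0.024, under a 2-fold change) and Mcm2 by -0.40 (adjusted p = 0.14), and none of these passed. Every array of week 16 lay above every array of week 8 for 3 of the 23 genes, which held for 23.8% of probe sets tested.

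At week 14, 4 genes rose, namely Ube2c (1.66, adjusted p = 0.0033), Cenpa (1.26, adjusted p = 0.0094), Nusap1 (1.12, adjusted p = 0.016) and Ccnb2 (1.02, adjusted p = 0.027), where 9.89% of probe sets rose and 3.70% fell, and no gene of the list fell. At week 12 no gene passed in limma, where 9.67% of probe sets passed in either direction. At an unadjusted p under 0.05 there were 2 of 23 genes, where 44.7% of all probe sets tested reached that level. The lowest values were those of Mcm2 (-0.68), Cenpa (1.0) and the thymidine kinase Tk1 (0.58). The 3 later weeks share the week 8 arrays.

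Without week 8 replicate 1, 14 of 22 genes rose at week 16, where 12.3% of probe sets rose, and 14 of 22 at week 14, where 9.88% did. Ube2c then rose by 2.16 at week 16, Mcm5 by 2.03, Top2a by 1.68, Birc5, the passenger complex protein survivin, by 1.63, Mki67 by 1.23 and Tk1 by 1.16. Pcna differed by 0.91, under a 2-fold change, and Mcm2 by -0.05. The count at week 16 was 3 without untreated week 8 replicate 3 or 4 or week 16 replicate 3 or 4, and that at week 14 was 2 without week 14 replicate 2. Without the lacrimal arrays with Amy1 above 8, no gene passed at week 12, the same 4 genes rose at week 14, and 5 of 23 rose at week 16, where 13.4% of probe sets rose. Top2a (1.40, adjusted p = 0.063) and Mcm7 (1.40, adjusted p = 0.095) then no longer passed, and Tk1 did. With the filter set on groups other than those compared, 6 of 22 genes rose at week 16.

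The lymphocyte markers moved with these genes in lacrimal glands. The mean of 11 B-cell markers was 7.51 to 8.28 per array at week 16 and 2.89 to 3.46 at week 8, and that of 9 T-cell markers 5.19 to 5.60 at week 16 and 2.81 to 2.89 at week 8. Week 8 replicate 1, with the highest cell cycle level, was at 2.89 for B-cell and 2.81 for T-cell markers. The part of lymphocytes in the rise was not tested.

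**Figure D3:**
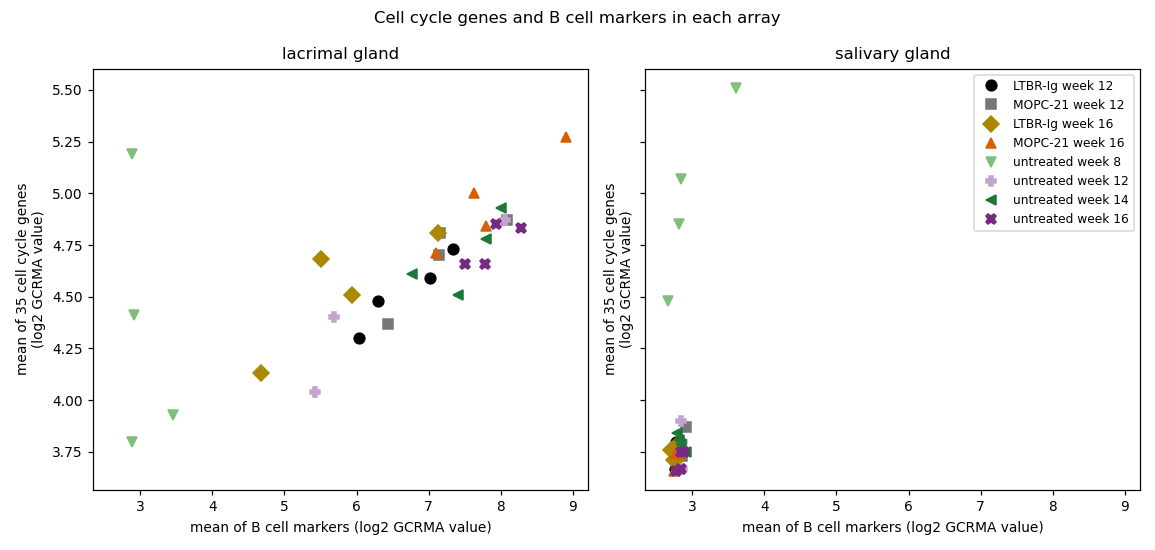
Mean of the 35 cell cycle genes against the mean of 11 B-cell markers (both log2 values) in each array, with a symbol for each group and a panel for each gland. In lacrimal glands the arrays of week 12 and later run upward together, while the week 8 arrays of both glands lie at low B-cell marker levels with cell cycle means of 3.80 to 5.51. The arrays of week 12 and later mix treatments and weeks, and no correlation is given for them.

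Of other S phase genes, 4 of 23 were higher and 1 was lower in lacrimal glands at week 16, shares close to the 12.1% and 4.49% of all probe sets. The polymerase subunit Pold1 (1.74), the histone mRNA-binding Slbp (1.01), Cdt1 (1.76) and the methyltransferase Dnmt1 (1.04) rose, and Uhrf1 fell by 1.04. Of other G2 and mitosis genes 8 of 22 rose and none fell, among them the condensin subunit Smc4 (1.54), the securin Pttg1 (1.52), Hmgb2 (1.30) and Incenp (1.36). Of the G1 and quiescence list 8 of 20 rose and 1 fell, and the 4 with the lowest adjusted p were Btg1 (3.02), Ccng2 (2.41), Rb1 (1.85) and Klf2 (3.50). Btg1, Ccng2, Rb1 and Klf2 are known to restrain division rather than to drive it.

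The order of the glands differed between weeks 8 and 16. At week 8, 12 of 27 genes tested were lower in lacrimal than in salivary glands of untreated mice and none was higher, where 11.6% of probe sets were lower and 7.19% higher. The median log2 difference of the 27 genes was -0.70, against -0.03 over all probe sets tested. Ect2, an exchange factor that places the cleavage furrow, was at 3.53, 3.22, 3.22 and 3.19 in lacrimal and at 5.70, 4.91, 4.42 and 5.08 in salivary glands (log2 difference -1.74, SE 0.20, adjusted p = 2.7e-10). Cdc20, an activator of the anaphase-promoting complex, was at 6.82, 5.52, 5.11 and 5.20 in lacrimal and at 7.50, 7.24, 6.23 and 6.51 in salivary glands (-1.21, adjusted p = 2.2e-04). Cdc20 overlapped between the glands through lacrimal replicate 1. Ect2 did not overlap, but it passed the filter through the salivary week 8 arrays alone and so had to differ.

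Ube2c (-2.34) and Mcm7 (-2.0) did not overlap between the glands either, and Ccnb2 (-1.35), Nusap1 (-1.17), Cdk1 (-1.18) and Mcm5 (-1.58) complete the 8 with the lowest adjusted p. Every lacrimal array lay below every salivary array for 5 of the 27 genes, a smaller share than the 25.9% of probe sets tested for which this held. The other 4 genes, Cenpa, Top2a, Mki67 and Mcm6, differed by -1.15 to -1.07. Of these, Mki67 had an adjusted p of 0.0069 and Top2a of 0.0061, while Pcna (-0.38) and Mcm2 (0.02) did not pass. The count was 7 of 24 without salivary replicate 1 (12.2% of probe sets), 13 without lacrimal replicate 1 (11.8%) and 6 without lacrimal replicate 3. Ect2, Aurkb, Kif11 and Kif20a passed the filter through the salivary week 8 arrays alone and so had to differ. With the filter set on groups other than these 2, 11 of 22 genes were lower, where 11.5% of probe sets were, and with no filter 12 of 35 were lower, with a median of -0.47.

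At week 16, 16 of 27 genes were higher in lacrimal than in salivary glands and none was lower, where 11.9% of probe sets were higher and 11.4% lower. The median log2 difference was 1.56, against 0.02 over all probe sets tested. Tk1 was at 4.70, 4.21, 5.31 and 4.84 in lacrimal and at 2.43, 2.44, 2.42 and 2.41 in salivary glands (2.34, adjusted p = 1.9e-11). Top2a was higher by 2.90, Cdca8 by 2.56 and Mki67 by 2.52, and the arrays of the 2 glands did not overlap for any of these 4 genes. Every lacrimal array lay above every salivary array for 21 of the 27 genes, which held for 29.5% of probe sets tested. Cdca8 was at 5.21, 5.07, 4.94 and 4.95 in lacrimal glands, where it was above background in each array, and at 2.62, 2.43, 2.23 and 2.67 in salivary glands. Mcm3 (2.69), Cenpa (2.04), Ube2c (2.36) and Rrm2 (1.76), the small subunit of ribonucleotide reductase, follow by adjusted p, and the other 8 genes were higher by 1.17 to 2.12. Pcna (0.71) and Mcm2 (0.44) did not pass. Both glands averaged above background at week 16 for 10 genes, of which 6 were higher. The share of all probe sets under that limit was not computed. The other genes that passed, among them Tk1, Top2a and Cdca8, were near background in salivary glands. Tk1 passed the filter through lacrimal arrays alone, so its difference was set in part by the filter. Without the arrays with Amy1 above 8, 16 of 27 genes were again higher, where 12.8% of probe sets were.

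The difference between the glands in the change from week 8 to week 16 was tested as an interaction. For 20 of 27 genes the lacrimal change exceeded the salivary change, where 12.6% of probe sets did, and for none was it smaller, where 6.98% of probe sets passed in that direction. The median difference of the 27 genes was 2.22, against -0.03 over all probe sets tested. The difference was 4.71 for Ube2c (SE 0.52, adjusted p = 2.6e-10), 4.05 for Top2a (SE 0.51, adjusted p = 8.7e-09), 3.59 for Mki67 (SE 0.48, adjusted p = 4.0e-08) and 3.15 for Cenpa (SE 0.44, adjusted p = 1.2e-07). Ect2, Ccnb2, Nusap1 and Cdc20 came next at 1.98 to 3.02, and the other 12 genes had differences of 1.09 to 3.70. Ect2, Aurkb, Kif11 and Kif20a again passed the filter through salivary week 8 alone. With the filter set on groups other than the 4 compared, the count was 19 of 22, where 12.5% of probe sets passed in that direction, and with no filter it was 21 of 35, with a median of 1.87. It was 20 of 27 without the arrays with Amy1 above 8, where 13.8% of probe sets passed. The count was 19 without salivary week 8 replicate 1 and 20 without lacrimal week 8 replicate 1, where 13.0% and 12.7% of probe sets passed.

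**Figure D4:**
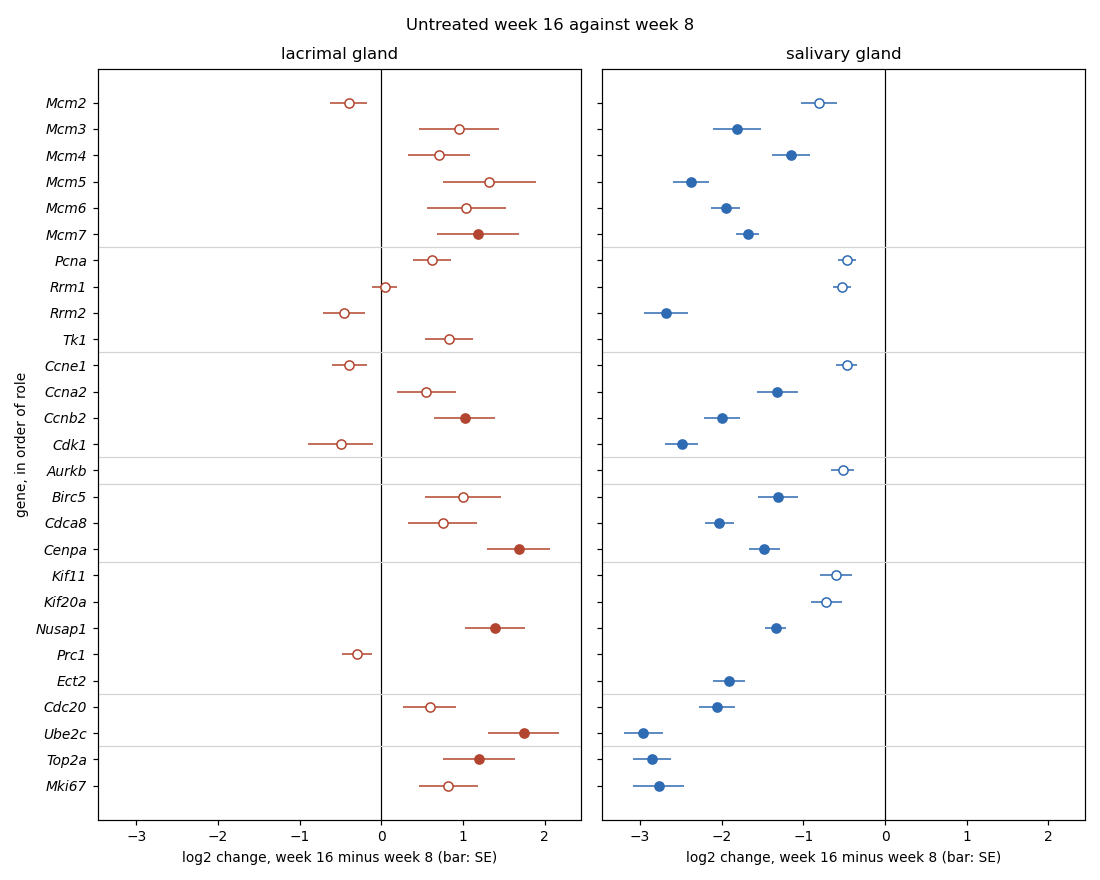
Log2 change at week 16 against week 8 in untreated mice (point) with its SE (bar) for each gene tested, lacrimal glands left and salivary glands right, with filled points for genes that passed. All 25 salivary changes lie below 0, and 18 of the 23 lacrimal changes lie above 0. The 25 include genes that passed the filter only through their week 8 level and so had to differ.

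With LTBR-Ig, a single gene of the list passed the test in lacrimal glands and none did in salivary glands. At week 16, after 8 weeks of injections, the lacrimal mean of the 35 genes was 4.53 ± 0.29 with LTBR-Ig and 4.96 ± 0.24 with MOPC-21 (SD, n = 4 each). Nusap1 was at 4.26, 2.87, 2.57 and 2.73 with LTBR-Ig and at 4.01, 4.23, 5.39 and 4.77 with MOPC-21. LTBR-Ig replicate 1 lay within the MOPC-21 range, and the other 3 LTBR-Ig arrays were below background. Nusap1 fell by 1.49 on the log2 scale (SE 0.37, adjusted p = 0.011) and was the 1 gene of 23 tested that passed, where 5.54% of probe sets fell and 0.339% rose.

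Mki67 was at 7.35, 6.93, 6.18 and 7.38 with LTBR-Ig and at 7.57, 7.47, 7.75 and 7.93 with MOPC-21. Its groups did not overlap, with a log2 change of -0.72 (SE 0.36, adjusted p = 0.13). Top2a was at 5.41, 4.18, 3.75 and 4.92 with LTBR-Ig and at 5.38, 5.30, 6.27 and 5.87 with MOPC-21, a change of -1.14 (SE 0.44, adjusted p = 0.061), and overlapped through LTBR-Ig replicate 1. Pcna (-0.53, adjusted p = 0.089) and Mcm2 (-0.53, adjusted p = 0.083) did not pass either. The 6 MCM genes had changes of -1.29 to -0.53 with a median of -1.04, and none passed.

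Of the 23 genes, 21 had a change below 0, with a median of -0.53 against -0.05 over all probe sets tested. The count at an unadjusted p under 0.05 was 10 of 23, and 38.9% of all probe sets reached that level. Every LTBR-Ig array lay below every MOPC-21 array for Pcna, Ube2c, Mki67 and Birc5, which held for 12.7% of probe sets, and above for Ccne1, which held for 6.74%.

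The count depended on single arrays. Leaving out LTBR-Ig replicate 1 gave 4 genes and leaving out MOPC-21 replicate 2 gave 5. Leaving out replicate 3 of either treatment gave 0, and Nusap1 then had an adjusted p of 0.054 without that of LTBR-Ig and 0.082 without that of MOPC-21. Without the lacrimal arrays with Amy1 above 8 it was 0, where 0.0605% of probe sets fell. Markers of other cells moved with the treatment. B-cell markers averaged 4.67 to 7.13 per array with LTBR-Ig and 7.10 to 8.90 with MOPC-21, and T-cell markers 3.79 to 5.01 with LTBR-Ig and 5.06 to 6.17 with MOPC-21. Plasma cell markers averaged 6.90 to 8.00 with LTBR-Ig and 8.14 to 8.45 with MOPC-21. The mean of 10 submandibular and sublingual gland markers was 7.85 to 10.46 with LTBR-Ig and 3.68 to 5.96 with MOPC-21. All 10 B-cell markers tested fell and 9 of 10 submandibular and sublingual markers rose. Their part in the values of the cell cycle genes was not tested.

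**Figure D5:**
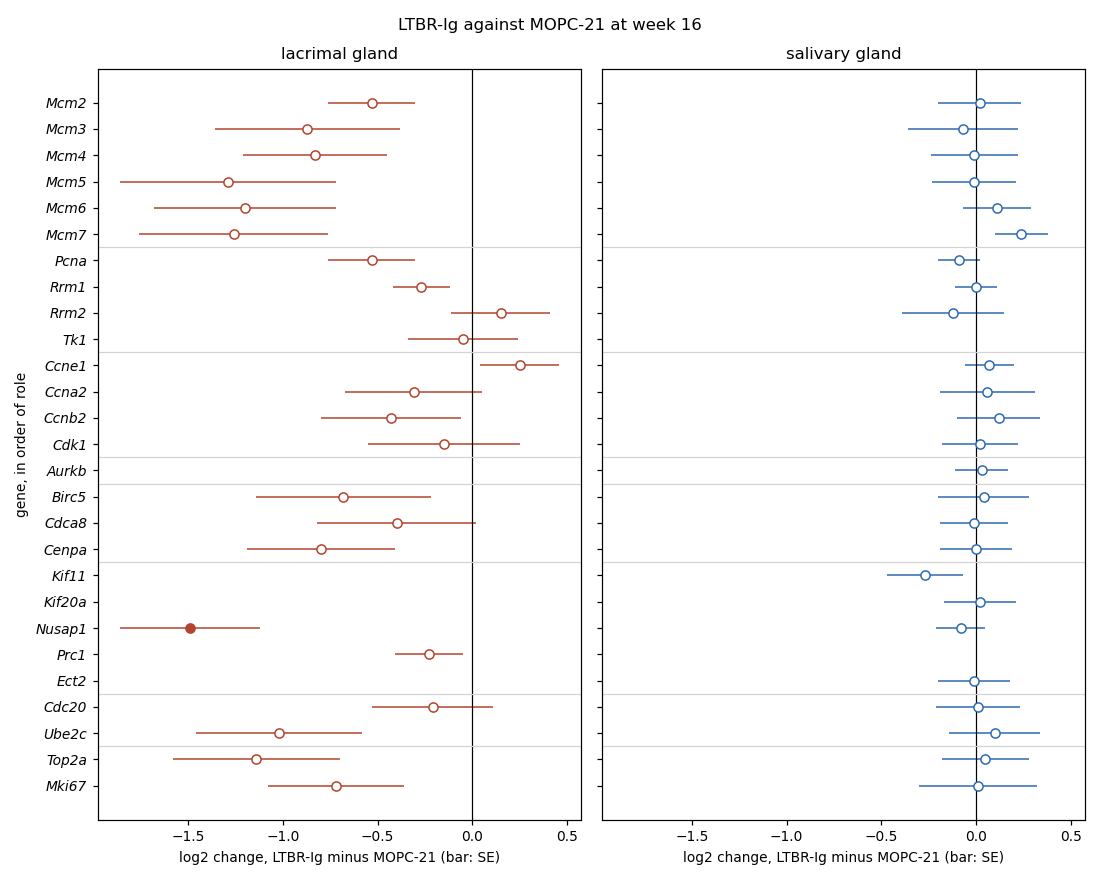
Log2 change with LTBR-Ig against MOPC-21 at week 16 (point) with its SE (bar) for each gene tested, lacrimal glands left and salivary glands right, with a filled point for the gene that passed. Of the lacrimal changes 21 of 23 lie below 0 with Nusap1 lowest at -1.49, and the salivary changes lie between -0.27 and 0.24.

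Of the other cell cycle lists, set against the 5.54% of probe sets that fell, S phase genes had 2 of 23 lower in this comparison, close to that share, namely Pole (-1.14) and Pold1 (-1.13), both polymerase subunits. Of G2 and mitosis genes 3 of 22 fell, the condensin subunits Smc4 (-1.03) and Smc2 (-1.12) and Cep55 (-1.20), which acts in abscission. Of the G1 and quiescence list 4 of 20 fell, Klf2 (-2.08), Ccng2 (-1.16), Btg1 (-1.31) and the CDK inhibitor Cdkn2d (-1.12). None rose in these 3 lists.

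Against untreated mice, which share the LTBR-Ig arrays with the comparison above, no cell cycle gene passed in limma at week 16, where 3.95% of probe sets passed in either direction. At an unadjusted p under 0.05 there were 2 of 23 genes, where 29.8% of all probe sets tested reached that level. The lowest values were those of Nusap1 (-1.11, adjusted p = 0.054), Mcm2 (-0.48) and Mcm6 (-0.96). Between MOPC-21-treated and untreated mice none of the 23 genes passed in limma, nor did any probe set (0.00%). An unadjusted p under 0.05 was reached by 2 of the 23 genes and by 2.05% of all probe sets tested. The lowest were Prc1, which bundles spindle microtubules, at 0.50, Rrm1 at 0.33 and cyclin Ccna2 at 0.47. After 4 weeks, at week 12, LTBR-Ig and MOPC-21 differed for no gene in limma, where 0.0498% of probe sets passed. None of the genes had an unadjusted p under 0.05, where 8.83% of all probe sets tested did. The lowest were Nusap1 (-0.69), Ccnb2 (-0.68) and Mcm2 (-0.27). The difference between week 16 and week 12 in the effect of LTBR-Ig passed for no gene and no probe set (0.00%). None of the 23 genes had an unadjusted p under 0.05, where 15.6% of all probe sets tested did. The lowest values were those of Top2a (-0.98, adjusted p = 0.41), Nusap1 (-0.80) and Pcna (-0.42).

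In salivary glands, no difference with treatment was detected among the 25 genes tested. No gene passed in limma when LTBR-Ig was set against MOPC-21 at week 16 (0.0357% of probe sets in either direction) or week 12 (0.0306%), for LTBR-Ig against untreated mice at week 16 (0.0663%) or for MOPC-21 against untreated mice at week 16 (0.00%). At an unadjusted p under 0.05 there was 1 gene, Mcm7 for LTBR-Ig against untreated mice, with a log2 change of 0.48 (SE 0.14, adjusted p = 0.34), followed by Cdc20 (0.23) and Ect2 (0.21). When LTBR-Ig was compared with MOPC-21 at week 16, the lowest values were those of Mcm7 (0.24), the spindle motor Kif11 (-0.27) and Pcna (-0.09). At week 12, with 2 LTBR-Ig arrays, they were those of Mcm2 (0.49), Kif11 (0.39) and Mcm4 (-0.35). For MOPC-21 against untreated mice they were Mcm7 (0.25), Kif11 (0.26) and Ccna2 (-0.27). Mki67 was at 4.74, 4.70, 5.31 and 5.01 with LTBR-Ig and at 4.61, 5.16, 4.83 and 5.12 with MOPC-21 at week 16, with overlapping arrays.

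The effect of LTBR-Ig against MOPC-21 at week 16 differed between the glands for 1 of 27 genes, Nusap1, which was -1.41 in lacrimal minus salivary glands (SE 0.40, adjusted p = 0.038), where 2.61% of probe sets had a more negative effect in lacrimal glands and 0.319% a more positive one. Mki67 (-0.73), Top2a (-1.18), Pcna (-0.44) and Mcm2 (-0.55) did not pass. Leaving out single arrays of these 4 groups moved the count between 0 and 2, and it was 0 when any 1 of the salivary arrays was left out. It was 2 without lacrimal LTBR-Ig replicate 1 or lacrimal MOPC-21 replicate 2, 0 without lacrimal LTBR-Ig replicate 2, 3 or 4 or lacrimal MOPC-21 replicate 3, and 0 without the lacrimal arrays with Amy1 above 8.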

How the data were processed

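RNA was extracted with Trizol, labelled with NuGEN Ovation reagents and hybridised to Affymetrix mouse genome arrays. The authors corrected and normalized the probe intensities by GCRMA (version not given in the sources used here) and deposited log2 expression values for 45101 probe sets on 61 arrays, which were used without further normalization. Probe sets were named from GEO's platform annotation, in which 34958 had a single symbol, 932 had several and 9211 had none.

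Glands were fitted separately with limma 3.58.1 in R 4.3.3, using 1 mean per group over all arrays of a gland and an intensity trend in the prior variance. Where the glands were compared, a joint fit held both (21626 probe sets). It took lacrimal and salivary arrays as independent, since the labels do not say which arrays share a mouse. The tests covered 20077 lacrimal and 19617 salivary probe sets, those with values over 4 on the log2 scale in 2 or more arrays of some group. Calls required at least a 2-fold change and an adjusted p (Benjamini-Hochberg, all probe sets tested) under 0.05. Per the study's methods each lacrimal sample came from 1 mouse. For salivary samples this is not given in the sources used here, and p-values measure the spread between samples. The number of arrays limits the precision.

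The 36 genes, the other lists and the tests were chosen with earlier results of these data known. In each comparison every called gene was named, or the 8 with the lowest adjusted p, or, with none called, the 3 with the lowest p. Mki67, Top2a, Pcna and Mcm2 were named in the main comparisons regardless, and array values were given for Mki67, Top2a and up to 4 called genes. The fit was tested on simulated data. Promoter motifs were searched in Python 3.11.15. Alternatives were no filter or a filter at log2 6, centred medians, another probe set or call rule, a replicate block, only the arrays compared, and leaving out each array.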

Additional observations from a re-analysis of the deposited data

Results flagged for a closer look

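The spread within groups of 4 was examined for 12 of the genes and for the mean of the 35 genes, in 182 groups in all, of which chance alone singles out about 1 in 20. In 11 of them, a number near that share, a single array lay apart by a large part of its group's range, which was small in some groups. In lacrimal glands these were Cdk1 in untreated week 14 replicate 1 (3.48, others 4.30 to 4.46), Ect2 in untreated week 8 replicate 1 (3.53, others 3.19 to 3.22) and in untreated week 14 replicate 4 (3.84, others 3.16 to 3.24), Mki67 in untreated week 16 replicate 2 (7.15, others 7.40 to 7.45), Nusap1 in untreated week 8 replicate 1 (3.48, others 2.55 to 2.68) and Ube2c in LTBR-Ig week 12 replicate 3 (3.95, others 4.92 to 5.05). In salivary glands they were the mean of the 35 genes in MOPC-21 week 12 replicate 2 (3.87, others 3.73 to 3.74), Cdc20 in MOPC-21 week 12 replicate 4 (4.24, others 4.97 to 5.0), Cdca8 in untreated week 14 replicate 1 (2.45, others 2.76 to 2.82), Top2a in LTBR-Ig week 16 replicate 2 (2.49, others 2.58 to 2.59) and Top2a in untreated week 12 replicate 1 (3.38, others 2.47 to 2.57).

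The change from week 8 to week 16 in untreated mice differed between the glands for 20 genes by limma's interaction test, each with a larger lacrimal value. The lacrimal minus salivary difference in log2 change was 4.71 for Ube2c, 4.05 for Top2a, 3.59 for Mki67, 3.15 for Cenpa, 1.98 for Ect2, 3.02 for Ccnb2, 2.73 for Nusap1, 2.65 for Cdc20 and 2.78 for Cdca8. It was 3.70 for Mcm5, 2.22 for Rrm2, 2.99 for Mcm6, 1.93 for Tk1, 2.86 for Mcm7, 2.76 for Mcm3 and 2.0 for Cdk1. It was 2.31 for Birc5, 1.09 for Pcna, 1.87 for Ccna2 and 1.86 for Mcm4, with an adjusted p of at most 9.8e-04 for all 20 genes. The effect of LTBR-Ig against MOPC-21 at week 16 differed between the glands for Nusap1 (-1.41, adjusted p = 0.038).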

How the results depend on the processing

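Counts of cell cycle genes that passed are given here where an alternative moved them by more than 1.5 times. For lacrimal LTBR-Ig against MOPC-21 at week 16 (1 gene), the count was 0 among probe sets above log2 6, by limma's posterior probability of no change and with only the arrays compared in the fit, and 2 with the second probe set of each gene. For LTBR-Ig against untreated lacrimal glands (0 genes) it was 1 with the second probe set and with only the arrays compared. For lacrimal week 12 against week 8 (0 genes) it was 1 with array medians centred and 1 by adjusted p alone. For week 14 (4 genes) it was 0 above log2 6, 0 by posterior probability and 2 with the second probe set, and for week 16 (6 genes) 2 above log2 6 and 0 by posterior probability. For salivary weeks 12, 14 and 16 against week 8 (18 genes each) it was 8 of 10 above log2 6 each time. For lacrimal against salivary glands at week 8 (12 genes) it was 6 above log2 6, 3 by posterior probability and 7 with only the arrays compared, and at week 16 (16 genes) 7 above log2 6. For the gland difference in the LTBR-Ig effect (1 gene) it was 0 without a filter, above log2 6, with medians centred, by posterior probability and with only the arrays compared. For the gland difference in the week 16 change (20 genes) it was 9 of 10 above log2 6. Fewer genes pass a filter at log2 6, and the cause of the other shifts was not tested.

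With the replicate number as a block, the count for lacrimal LTBR-Ig against MOPC-21 at week 16 was 2, and no other count moved by more than 1.5 times. Correlations of same-numbered deviations ran from -0.52 to 0.53, and no comparison with 3 or more pairs had all of them over 0.1. The labels name no mouse, so these correlations cannot decide whether same-numbered arrays of the glands came from the same mouse.

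Leaving out each array in turn gave counts of 0 to 5 for lacrimal LTBR-Ig against MOPC-21 at week 16, 0 to 1 against untreated, 0 to 1, 2 to 14 and 3 to 14 for lacrimal weeks 12, 14 and 16, 15 to 19, 16 to 18 and 14 to 18 for the same weeks in salivary glands, 6 to 13 and 16 to 16 for lacrimal against salivary glands at weeks 8 and 16, 0 to 2 for the gland difference in the LTBR-Ig effect and 19 to 21 for that in the week 16 change. The other comparisons stayed at 0.

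Added after seeing the data were the fit without the lacrimal arrays with Amy1 above 8, which gave 0 for both LTBR-Ig effects that had 1 gene, the salivary filter without week 8, which gave 7 of 10 at each week, a filter set without the groups compared, which moved no count by more than 1.5 times, and the fits without both week 8 arrays numbered 1. Without those 2 arrays the week 8 difference of Mcm2 between lacrimal and salivary glands was -0.24, against 0.02 with all arrays, and leaving out single arrays gave -0.33 (lacrimal replicate 1) to 0.21 (lacrimal replicate 4), with -0.12 without salivary replicate 3. Of 2407 values for single genes under these settings, 2269 kept their direction and side of the threshold, 128 no longer passed, 7 newly passed and 3 reversed. Levels below 4 lie near background, which limits how well changes of the low genes are measured.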
